A study of Mus musculus with 12 samples.

Results

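Costimulatory and checkpoint receptors of thymocytes were examined as a set of 8 genes, Cd27, Tnfrsf4, Tnfrsf9, Tnfrsf18, Ctla4, Lag3, Cd200 and Cd83, taken by symbol from a table of 23234 genes and short RNAs. They were chosen as receptors that mark thymocytes selected by agonist ligands, a rule that uses no measured value, although results of these data were known when it was set. All 8 were found, and 4 of them (Cd27, Tnfrsf18, Tnfrsf4 and Lag3) had a mean of at least 1 FPKM (fragments per kilobase of transcript, scaled to the mapped total of the library) over the 12 libraries, the minimum for testing.

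RNA-seq was performed on CD4+CD8+ double-positive (DP) thymocytes of C57BL/6 mice that had been sorted as CD24hiTCRblo, the stage before positive selection. 5 libraries came from newborn wild-type thymus. 3 came from newborn Bcl11bm/m thymus, in which both copies of Bcl11b carry a frameshift allele whose protein lacks the final zinc finger. 4 came from Bcl11bfl/fl:Cd4-Cre mice, titled cKO and so called here, whose age the labels leave out, and in which Cre driven by Cd4 sequences removes Bcl11b from the DP stage on, so that earlier stages are spared. Age and genotype cannot be told apart in any comparison with cKO libraries if these mice were not newborn. Genotypes were taken from the sample titles and the overall design, since the descriptions of the wild-type and cKO libraries name a different genotype. Zbtb7b, a transcription factor of the CD4 lineage chosen with its values known, was 0 to 0.215 FPKM in the libraries titled wild-type, 41.1 to 50.4 FPKM in Bcl11bm/m and 9.44 to 56.6 FPKM in cKO libraries, so that those titled wild-type stood apart from both mutant groups. The labels do not say whether the libraries of a group came from separate animals, so p-values measure the spread between libraries, which may be technical. In such bulk samples fewer cells expressing a gene and less RNA per cell cannot be told apart.

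T cell activation is tuned by receptors that add to, or oppose, the signal of the T cell receptor (TCR). CD27, OX40 (Tnfrsf4), 4-1BB (Tnfrsf9) and GITR (Tnfrsf18) belong to the TNF receptor superfamily, bind trimeric ligands of the TNF family and signal through TRAF adaptors. CTLA-4 competes with CD28 for CD80 and CD86, LAG-3 is a CD4 homologue that binds MHC class II, CD200 is a ligand for the inhibitory receptor CD200R on myeloid cells, and CD83 is an immunoglobulin-superfamily protein known from mature dendritic cells and from activated lymphocytes. In the thymus, GITR, OX40, 4-1BB, CTLA-4, LAG-3, CD200 and CD83 are known from cells that received strong TCR signals, such as regulatory T cell precursors, whereas CD27 is expressed broadly from the precursor stages.

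Bcl11b, the targeted gene, was measured at 132, 286, 292, 158 and 223 FPKM in the wild-type, at 430, 434 and 482 FPKM in the Bcl11bm/m and at 127, 140, 136 and 115 FPKM in the cKO libraries. Values are listed in replicate order here and throughout. Since reads of the entire gene are pooled in them, they do not check the deletion of floxed exons or the frameshift. Depth, estimated from the steps between low FPKM values, was 3650000 to 6370000 fragments in wild-type, 2510000 to 3920000 in Bcl11bm/m and 10200000 to 42010000 in cKO libraries, so that low genes are measured least precisely in Bcl11bm/m thymocytes. Of the 4 cKO libraries, replicates 1 and 4 had 2.65 and 1.39 FPKM of the immediate early gene Nr4a1. Replicates 2 and 3 had 16.6 and 15.2 FPKM, and wild-type libraries had 15.2 to 26.5 FPKM. The Bcl11bm/m libraries were low too, at 4.05 to 4.69 FPKM. The coreceptor genes that define DP cells were high in all 12 libraries, Cd4 at 281 to 651 FPKM and Cd8a at 591 to 1054 FPKM. Library preparation is uncertain, because the protocol in the labels describes another sorted population and another kit than the methods of the study.

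The members fell into 3 levels, shown by the plot of all members by library. Cd27 was abundant in every library, from 215 to 376 FPKM, and at most 0.977% of all features exceeded it in a library. Tnfrsf18 (11.1 to 30.1 FPKM) and Lag3 (5.14 to 76.1 FPKM) were intermediate, with Tnfrsf4 below them at 1.15 to 3.97 FPKM. Tnfrsf9, Ctla4, Cd200 and Cd83 had means of 0.417, 0.697, 0.571 and 0.405 FPKM over the 12 libraries and are described without a model fit. In the wild-type thymocytes the order by mean was Cd27, Tnfrsf18, Lag3, Tnfrsf4, Cd200, Ctla4, Tnfrsf9 and Cd83. Wild-type ranges were apart between Cd27 and Tnfrsf18 and between Lag3 and Tnfrsf4. They met between Tnfrsf18 and Lag3 (11.1 to 30.1 and 6.90 to 15.0 FPKM) and between all neighbours from Tnfrsf4 down. In Bcl11bm/m thymocytes Lag3 stood above Tnfrsf18 (67.8 against 16.6 FPKM on average).

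**Figure D1:**
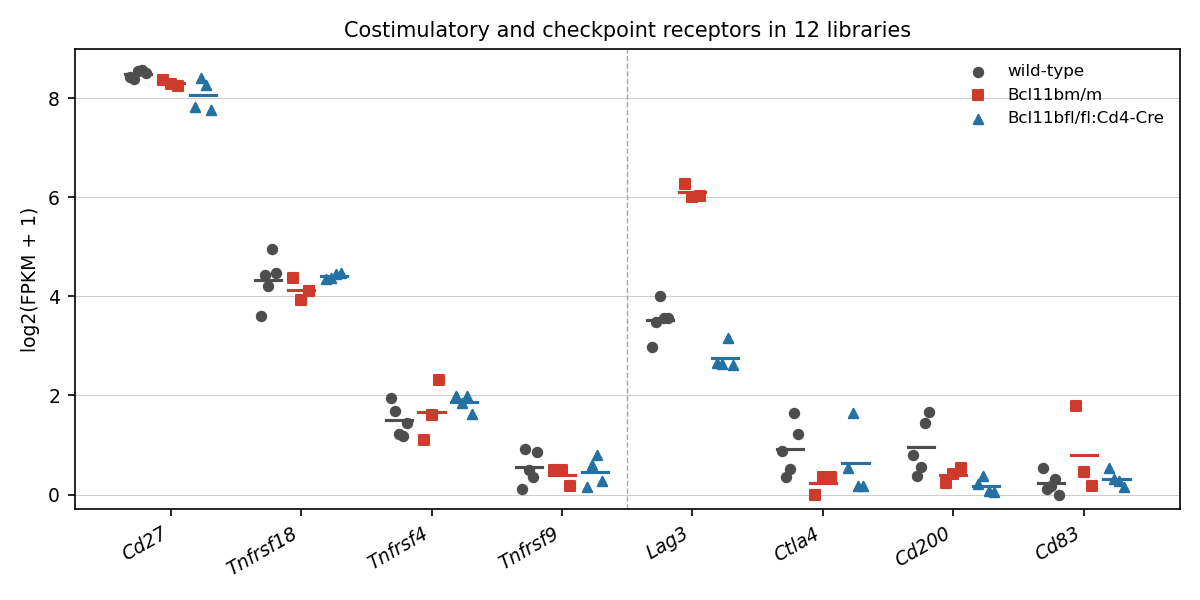
Expression of the 8 members as log2(FPKM + 1) in wild-type (circles), Bcl11bm/m (squares) and Bcl11bfl/fl:Cd4-Cre (cKO, triangles) libraries. Each point is a library, each short line is a group mean, and the dashed line separates TNF receptor family members from the others. The 3 Bcl11bm/m libraries stand apart for Lag3, at 63.2 to 76.1 FPKM, and the Bcl11bm/m replicate with 2.45 FPKM stands apart for Cd83.

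Promoter sequences of the members were looked up. The RefSeq table (GRCm38.p6) held a window of 250 bases before to 50 bases after the start for 6 of the 8 members, and Lag3 and Cd83 had no entry. Each window was placed on NCBIM37 by exact match. Windows are shown for Cd27 and Tnfrsf18, the most abundant TNF receptor family members, and for the second start of Tnfrsf9, the family member with the lowest expression. Motifs were searched on both strands, Runx (ACCACA or ACCGCA), NF-kB (GGG, 2 bases of any kind and TTTCC) and AP-1 (TGANTCA), and their matches are in capitals. None overlapped another match.
Cd27, chr6:125186996-125187295, minus strand: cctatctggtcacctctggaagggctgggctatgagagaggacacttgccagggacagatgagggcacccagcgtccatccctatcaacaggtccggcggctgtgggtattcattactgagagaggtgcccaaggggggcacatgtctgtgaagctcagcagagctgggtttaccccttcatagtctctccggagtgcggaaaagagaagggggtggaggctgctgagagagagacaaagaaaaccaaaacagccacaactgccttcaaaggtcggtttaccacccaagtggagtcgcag
Tnfrsf18, chr4:155400181-155400480, plus strand: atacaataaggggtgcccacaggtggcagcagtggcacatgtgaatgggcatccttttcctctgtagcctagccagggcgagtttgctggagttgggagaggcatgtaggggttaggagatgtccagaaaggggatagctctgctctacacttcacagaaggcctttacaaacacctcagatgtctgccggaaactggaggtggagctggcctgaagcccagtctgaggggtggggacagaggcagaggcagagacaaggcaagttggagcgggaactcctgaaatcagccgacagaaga
Tnfrsf9, chr4:150301858-150302157, plus strand: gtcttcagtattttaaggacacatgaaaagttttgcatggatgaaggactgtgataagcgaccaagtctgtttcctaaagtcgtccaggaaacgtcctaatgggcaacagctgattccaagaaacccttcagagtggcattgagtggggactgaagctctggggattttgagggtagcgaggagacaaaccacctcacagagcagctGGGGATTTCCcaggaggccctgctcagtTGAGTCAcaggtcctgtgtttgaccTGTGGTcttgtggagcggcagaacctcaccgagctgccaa
Only the window of the second Tnfrsf9 start among the 7 windows of these members held a match, with 1 Runx, 1 NF-kB and 1 AP-1 match. The window of the first Tnfrsf9 start (chr4:150294014-150294313), not shown, held none. Of the 32851 windows of 300 bases in the table, 22.4% held a Runx match, 1.63% an NF-kB match and 7.81% an AP-1 match. A match is a description of letters, and a window without one says nothing about binding of the factor.

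Lag3 differed most of all members in both comparisons with Bcl11bm/m thymocytes. In cKO thymocytes Cd200 had a slightly larger difference on the log2(FPKM + 1) scale (-0.79 against -0.75). Alternatives that kept every library, without a block, gave -2.14 to -0.75 for Cd200 and -0.90 to -0.61 for Lag3. Lag3 lies on the minus strand at chr6:124854379-124861723 (NCBIM37). The wild-type libraries had 6.90, 10.1, 15.0, 10.8 and 10.8 FPKM. The Bcl11bm/m libraries had 76.1, 63.2 and 64.0 FPKM. The cKO libraries had 5.28, 5.17, 7.97 and 5.14 FPKM. All Bcl11bm/m libraries were thus above all others, while the highest cKO library lay within the wild-type range and the other 3 lay below it.

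In Bcl11bm/m thymocytes the mean of Lag3 was 67.8 ± 7.24 FPKM (SD, n = 3), 6.32 times that of wild-type thymocytes (10.7 ± 2.89 FPKM, SD, n = 5). The difference of 2.58 on the log2(FPKM + 1) scale (standard error 0.21, 95% confidence interval 2.11 to 3.06) had an adjusted p of 1.35e-04 by limma. Lag3 rose and was 1 of 4 tested members called in this comparison, in which 17.3% of the 10780 genes tested were called, 9.92% as higher and 7.39% as lower. Higher calls made up 57.3% of these, but 49.2% after quantile normalization, 45.3% with library quality weights and 64.7% after rescaling without short RNAs. Leaving out each library in turn gave differences of 2.45 to 2.70. Estimated fragments behind the values were 382, 484 and 502 in the Bcl11bm/m and 81.8 to 120 in the wild-type libraries.

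In cKO thymocytes Lag3 averaged 5.89 ± 1.39 FPKM (SD, n = 4), 1.82 times lower than in wild-type. The difference of -0.75 (standard error 0.20, 95% confidence interval -1.20 to -0.30) had an adjusted p of 0.0356 by limma, and an exact two-sided permutation test gave p = 0.0317. It was again 1 of 4 members called, where 14.5% of all genes tested were called, 4.65% as higher and 9.86% as lower. Of the called genes 32% were higher, but 46.3% were higher after median-ratio scaling, 49.1% relative to the median difference and 52.8% after rescaling without short RNAs, while the median difference of all genes was -0.09. The Lag3 call was lost when any of wild-type replicates 2 to 5 or cKO replicates 1, 2 or 4 was left out (adjusted p between 0.0651 and 0.105 by limma, differences between -0.76 and -0.63). It was also lost relative to the median difference (adjusted p = 0.0609 by limma) and without the expression minimum (adjusted p = 0.0627 by limma). A block for the replicate number ended it too (-0.74, adjusted p = 0.0519 by limma). That fit kept only replicate numbers present in both groups, so wild-type replicate 5 was left out. The difference was negative in each of these fits.

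Compared directly, Lag3 was 11.5 times as abundant in Bcl11bm/m as in cKO thymocytes. The difference of 3.33 (standard error 0.16, 95% confidence interval 2.96 to 3.71) had an adjusted p of 1.27e-04 by limma, and with 1 library left out it lay between 3.25 and 3.47. Lag3 was 1 of 4 members called here too, against 10.2% of all genes tested, 7.63% as higher and 2.6% as lower. Of those called genes 74.6% were higher in Bcl11bm/m thymocytes, and 51.6% after median-ratio scaling, 53.4% after quantile normalization and 56.4% relative to the median difference. The comparisons of either mutant with wild-type share their 5 control libraries.

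**Figure D2:**
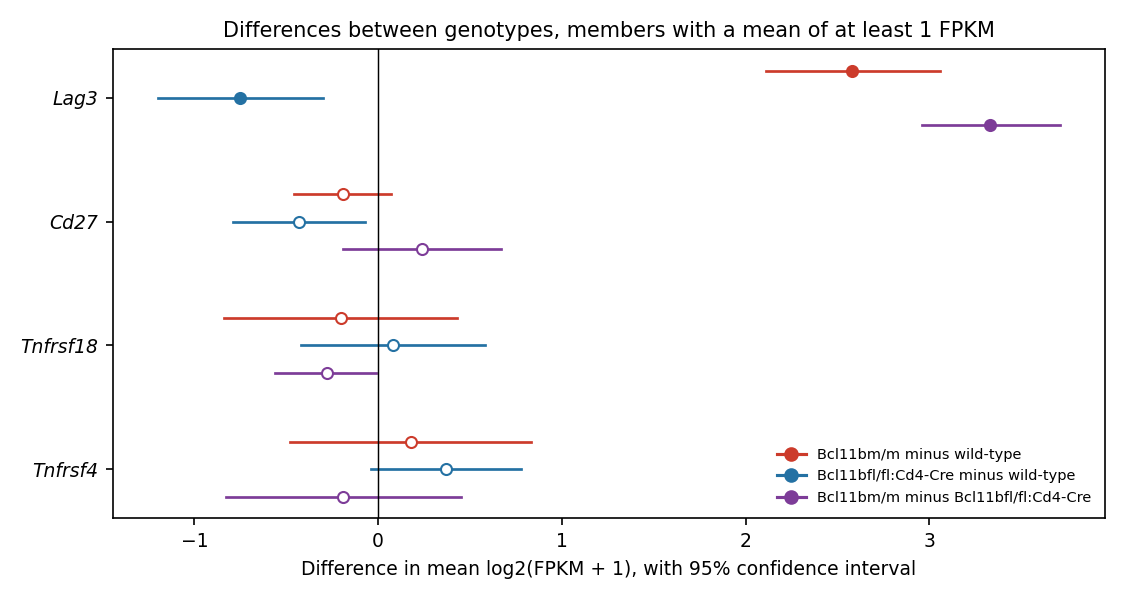
Differences between groups in mean log2(FPKM + 1) for the 4 members with a mean of at least 1 FPKM, with 95% confidence intervals from limma. Filled points have an adjusted p under 0.05. Lag3 is the only filled gene, at 2.58, -0.75 and 3.33.

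Of the 4 genes nearest to Lag3, Gpr162 rose with it in Bcl11bm/m thymocytes and Cd4 fell. Cd4, the coreceptor gene 16.1 kb away, had 598 ± 52.5 FPKM (SD, n = 5) in wild-type and 299 ± 18.5 FPKM (SD, n = 3) in Bcl11bm/m thymocytes and fell by 0.99 (adjusted p = 0.00215 by limma). Cd4 and Lag3 therefore differed from wild-type in opposite directions in Bcl11bm/m thymocytes. Ptms (parathymosin), 1.98 kb away on the other side, had an adjusted p of 0.121 in Bcl11bm/m and fell by 1.32 in cKO thymocytes (adjusted p = 0.00709 by limma). Gpr162, 40.4 kb away, rose by 0.88 in Bcl11bm/m thymocytes (adjusted p = 7.45e-04 by limma) and was higher there than in cKO thymocytes by 0.56 (adjusted p = 0.0213 by limma). Mlf2, 19.7 kb away, had differences of -0.19, -0.34 and 0.15 in the 3 comparisons and passed in none. Whether these genes differ from Lag3 in their response was not tested.

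**Figure D3:**
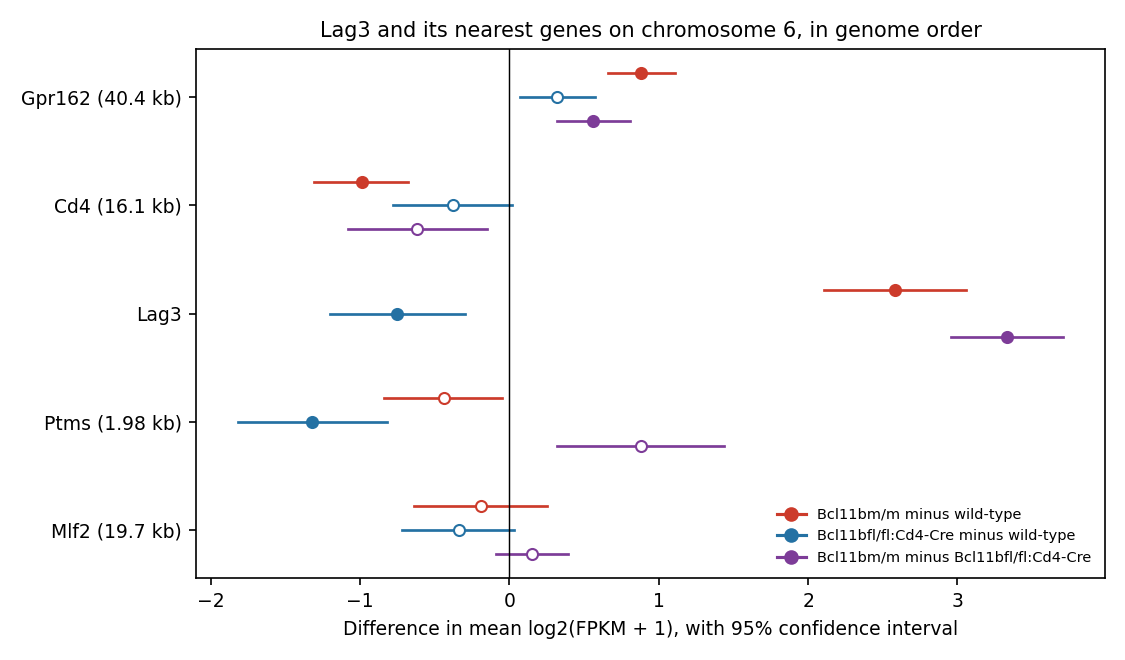
Differences in mean log2(FPKM + 1) for Lag3 and the 2 nearest genes on either side, with the distance to Lag3 in kb and 95% confidence intervals from limma. Filled points have an adjusted p under 0.05. Lag3 lies at 2.58 and Cd4 at -0.99 for Bcl11bm/m minus wild-type.

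The profiles most like that of Lag3 over the 12 libraries, by Euclidean distance between centred log2(FPKM + 1) values, were those of Fads2 (distance 1.46), 5730559C18Rik (1.51) and Tubb3 (1.55). Fads2, a fatty acid desaturase, averaged 11.5, 51.4 and 6.05 FPKM in wild-type, Bcl11bm/m and cKO thymocytes. It followed the same order of groups as Lag3. Tubb3, a beta-tubulin, averaged 1.06, 15.1 and 1.03 FPKM, and 5730559C18Rik 0.293, 8.04 and 0.269 FPKM.

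Markers of other cells that can express Lag3 also differed between the groups, although the sort for CD4+CD8+ CD24hiTCRblo cells is meant to leave such cells out. The summed level of 12 markers of natural killer and innate lymphoid cells was 48.5 to 100 FPKM in wild-type, 275 to 474 FPKM in Bcl11bm/m and 101 to 241 FPKM in cKO libraries, although Ncr1, Klrk1, Eomes and Gzmb were under 1 FPKM in every library. Of the 5 tested, Klrb1c, Prf1 and Gzma were called higher in Bcl11bm/m thymocytes, and Gzma was called higher and Prf1 lower in cKO thymocytes. Klrb1c averaged 0.155, 4.22 and 7.34 FPKM and Prf1 2.45, 5.12 and 0.946 FPKM in wild-type, Bcl11bm/m and cKO thymocytes. Gzma made up most of the sum in Bcl11bm/m libraries, with 16.4 to 67.1, 202 to 409 and 64.3 to 160 FPKM in the 3 groups. The other 11 markers summed to 32.1 to 48.6, 58.3 to 74.7 and 37.1 to 80.2 FPKM. Most of that was Gata3 (27.7 to 45.1, 47.6 to 59.6 and 29.5 to 49.2 FPKM), which was not called in either mutant against wild-type. Of 11 markers of gamma-delta T cells 7 were found, without the TCR genes Tcrg-C1, Tcrg-C2, Tcrg-C4 and Trdc. Those 7 summed to 0.344 to 1.23, 111 to 153 and 4.78 to 82.2 FPKM in the same order, with Il17a at 0 in all. In Bcl11bm/m libraries nearly all of this sum was Cd163l1 (36.3 to 60.8 FPKM) and 5830411N06Rik (48.3 to 91.2 FPKM), while Maf had 1.75 to 1.97 FPKM, against 0.281 to 0.736 FPKM in wild-type, and Sox13, Blk and Il23r were under 1 FPKM. Of the 5 tested, Cd163l1, 5830411N06Rik and Maf were called higher in Bcl11bm/m thymocytes, and Blk and 5830411N06Rik in cKO thymocytes. The cKO libraries varied, from 0.478 to 13.9 FPKM for Sox13, 0.525 to 9.91 FPKM for Blk and 0.551 to 12.4 FPKM for Maf, with replicate 1 the highest for each. 9 markers of regulatory T cells summed to 17.1 to 21.7, 65.7 to 149 and 27.4 to 41.5 FPKM. Il2ra alone made up 33.5 to 117 FPKM of the Bcl11bm/m sums. Of the 3 tested, Il2ra was called higher in Bcl11bm/m thymocytes and Ikzf2 in both mutants (7.32, 18.4 and 16.0 FPKM on average in the same order of groups), while Nrp1 averaged 8.02, 12 and 14.7 FPKM and was not called. Their defining factor Foxp3, and Ikzf4, Il10 and Lrrc32, were under 1 FPKM in every library. 14 markers of post-selection thymocytes summed to 541 to 745, 712 to 1022 and 512 to 900 FPKM, and 8 of them were called higher and 1 lower in Bcl11bm/m thymocytes. In cKO thymocytes 6 of them were called higher and 2 lower. Both counts of higher calls include S1pr1 and Il7r, which were at most 0.0572 and 0.0885 FPKM in wild-type libraries and reached the expression minimum through the mutants alone. The same holds for Klrb1c, Maf, Blk, Cd163l1 and 5830411N06Rik, which were under 1 FPKM in all wild-type libraries, so none of these calls is independent evidence of a difference. Over all genes tested 9.92% were called higher and 7.39% lower in Bcl11bm/m thymocytes, and 4.65% and 9.86% in cKO thymocytes. The 14 markers of pre-selection DP cells summed to 5693 to 7600, 4391 to 5087 and 3942 to 6170 FPKM. The part of these cells in the Lag3 levels was not tested.

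Cd27, the receptor for CD70, was the most abundant member. It lies at chr6:125182640-125187028 on the minus strand. It was measured at 345, 333, 375, 376 and 364 FPKM in wild-type, 331, 309 and 301 FPKM in Bcl11bm/m and 224, 338, 306 and 215 FPKM in cKO libraries. All 3 Bcl11bm/m libraries were below all wild-type libraries by a small margin, and cKO replicates 1 and 4, the cKO libraries low in Nr4a1, were the lowest.

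None of the Cd27 differences passed after adjustment over all genes. For Bcl11bm/m minus wild-type the difference was -0.19 (95% confidence interval -0.46 to 0.07, adjusted p = 0.314 by limma), and for cKO minus wild-type it was -0.43 (-0.79 to -0.07, adjusted p = 0.102 by limma). Without cKO replicate 2 the latter was -0.55, with an adjusted p of 0.0482 by limma. Library quality weights also gave a call (-0.48, adjusted p = 0.0302 by limma), and unadjusted exact two-sided permutation tests against wild-type gave p = 0.0357 for Bcl11bm/m, the smallest possible, and 0.0317 for cKO. The mutants differed by 0.24 (-0.19 to 0.67, adjusted p = 0.434 by limma). The annotated span of Vamp1 covers Cd27 on the opposite strand, so reads of these genes cannot be told apart if strand was not used in counting. Vamp1 averaged 81.6, 57.9 and 44.3 FPKM in wild-type, Bcl11bm/m and cKO thymocytes, and its differences from wild-type were -0.48 (adjusted p = 0.148 by limma) and -0.86 (adjusted p = 0.0115 by limma), negative like those of Cd27. Tapbpl, 0.762 kb away, rose by 0.55 in Bcl11bm/m thymocytes (adjusted p = 0.0191 by limma). Closest to the Cd27 profile were Pabpc1 (distance 0.365), Serbp1 (0.386) and Tlk1 (0.409).

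Tnfrsf18 and Tnfrsf4, which encode GITR and OX40, are neighbours 9.55 kb apart on chromosome 4, at chr4:155400273-155403004 and chr4:155387952-155390721, both on the plus strand. Tnfrsf18 had 11.1, 20.5, 17.5, 30.1 and 21.3 FPKM in wild-type, 19.6, 14.2 and 16.2 FPKM in Bcl11bm/m and 19.5, 19.6, 20.8 and 21.3 FPKM in cKO libraries. The mutant values all lay within the wild-type range. Tnfrsf4 had 2.87, 2.21, 1.32, 1.28 and 1.73 FPKM in wild-type, 1.15, 2.04 and 3.97 FPKM in Bcl11bm/m and 2.97, 2.58, 2.99 and 2.09 FPKM in cKO libraries. The groups overlapped in each comparison, and the lowest Bcl11bm/m value stood for about 3.15 fragments.

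For Tnfrsf18 the differences from wild-type were -0.20 (95% confidence interval -0.84 to 0.43, adjusted p = 0.67 by limma) in Bcl11bm/m and 0.08 (-0.42 to 0.58, adjusted p = 0.845 by limma) in cKO thymocytes. Between the mutants it was -0.28 (-0.56 to -0.01, adjusted p = 0.164 by limma), a difference that passed after median-ratio scaling (-0.40, adjusted p = 0.0424 by limma). For Tnfrsf4 the differences from wild-type were 0.18 (-0.48 to 0.83, adjusted p = 0.728 by limma) and 0.37 (-0.04 to 0.78, adjusted p = 0.211 by limma), and the mutants differed by -0.19 (-0.83 to 0.45, adjusted p = 0.687 by limma). These intervals leave room for changes of either gene in the Bcl11bm/m group. Sdf4, 0.233 kb from Tnfrsf4, differed by 0.05, -0.06 and 0.11 in the 3 comparisons and passed in none.

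The other 4 members were near the limit of detection. Tnfrsf9 (4-1BB, chr4:150288671-150320211, plus strand) had 0.0800, 0.900, 0.418, 0.272 and 0.824 FPKM in wild-type, 0.407, 0.405 and 0.131 FPKM in Bcl11bm/m and 0.114, 0.506, 0.743 and 0.205 FPKM in cKO libraries. These ranges overlapped, and the exact two-sided permutation p was 0.536 and 0.667 for the Bcl11bm/m and cKO groups against wild-type. Of the genes around it, Errfi1, an inhibitor of EGF receptor signalling 45.7 kb away, fell by 2.45 in Bcl11bm/m (adjusted p = 5.14e-05 by limma) and by 1.18 in cKO thymocytes (adjusted p = 0.00514 by limma).

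Ctla4 (chr1:60943844-60972676, plus strand) had 0.831, 0.281, 0.435, 2.12 and 1.33 FPKM in wild-type, 0, 0.280 and 0.273 FPKM in Bcl11bm/m and 0.452, 2.11, 0.132 and 0.128 FPKM in cKO libraries. The 3 Bcl11bm/m values were the lowest of that comparison, but they stood for 0, 2.08 and 2.07 estimated fragments, within a floor of 3 fragments, and the nearest wild-type value of 0.281 FPKM stood for 3.09. The exact two-sided permutation p was 0.0357, the smallest that 3 against 5 libraries can give, so leaving out a library, after which no p below 0.0571 or 0.0952 is possible, tests nothing. After median-ratio scaling it was 0.0714 by the same exact test. For Ctla4 limma without the expression minimum gave an adjusted p of 0.164. cKO libraries overlapped wild-type (exact permutation p = 0.476). Cd28 and Icos, which lie 114 and 62.1 kb from Ctla4, are described with their family.

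Cd200 (chr16:45382248-45409166, minus strand) had 0.737, 0.301, 0.467, 1.71 and 2.15 FPKM in wild-type, 0.170, 0.339 and 0.441 FPKM in Bcl11bm/m and 0.162, 0.297, 0.0530 and 0.0343 FPKM in cKO libraries. All cKO libraries were below all wild-type libraries, the closest values being 0.297 and 0.301 FPKM. The difference of -0.79 on the log2(FPKM + 1) scale had an exact two-sided permutation p of 0.0159, the smallest that 4 against 5 libraries can give. With any library left out, p was again the smallest possible (0.0286 or 0.0357), and so it shows only that the groups did not overlap. This p-value is not adjusted over all genes, and limma without the expression minimum gave an adjusted p of 0.106. The deeper cKO libraries held 16.0, 7.11, 1.99 and 0.993 estimated fragments. Against Bcl11bm/m thymocytes the wild-type libraries overlapped (exact permutation p = 0.143).

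Cd83 (chr13:43880476-43898499, plus strand) had 0.444, 0.0832, 0.129, 0.251 and 0 FPKM in wild-type, 2.45, 0.374 and 0.122 FPKM in Bcl11bm/m and 0.458, 0.234, 0.205 and 0.114 FPKM in cKO libraries. A single library, Bcl11bm/m replicate 1, with 2.45 FPKM, exceeded the others, and the groups overlapped (exact permutation p = 0.286 and 0.508 against wild-type). Without that library the difference from wild-type was 0.08 rather than 0.57. The summed level of 17 markers of dendritic and myeloid cells, in which Cd83 is typical, was 9.43 to 18.9 FPKM in wild-type, 36.0 to 120 FPKM in Bcl11bm/m and 4.15 to 50.7 FPKM in cKO libraries. The highest sum, 120 FPKM, was that of Bcl11bm/m replicate 1, with Lyz2 at 37.7 FPKM against 10.9 and 5.53 FPKM in the other Bcl11bm/m libraries. The same library had the highest sum of 11 B cell markers (174 FPKM, against 71.0 to 142 FPKM in the others), most of which was Cd37 in every library (55.2 to 133 FPKM), and stood apart with 10.7 FPKM of Cd79a against 1.08 and 0.210 FPKM, although Pax5 and Ebf1 were under 1 FPKM in all libraries. The Lag3 difference from wild-type was 2.50 without this library. The dendritic cell factor Zbtb46 was at 0 in wild-type and Bcl11bm/m libraries. Of the 8 dendritic and myeloid markers tested, Flt3, Mpeg1, Tyrobp and Fcer1g were called higher in Bcl11bm/m thymocytes, where 9.92% of all genes were, and Lyz2 and Mpeg1 were called lower in cKO thymocytes, where 9.86% of all genes were. Flt3 had 2.86, 4.42 and 5.81 FPKM in Bcl11bm/m libraries and at most 0.218 FPKM in wild-type. Flt3 and Mpeg1 reached the expression minimum through the Bcl11bm/m libraries alone, so their higher calls there are no independent evidence of a difference. Tyrobp averaged 1.3, 14.3 and 1.49 FPKM, Fcer1g 1.39, 19.7 and 15.6 FPKM and Mpeg1 0.711, 2.74 and 0.0971 FPKM in wild-type, Bcl11bm/m and cKO thymocytes. The part of such cells in the Cd83 level was not tested.

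Of the ligands of the TNF receptor family members, Tnfsf9 was the only gene above the expression minimum. Cd70 and Tnfsf18, the ligands of CD27 and GITR, were listed at 0 in all 12 libraries, and Tnfsf4, the OX40 ligand, was at most 0.336 FPKM. Tnfsf9, the 4-1BB ligand, was expressed at 1.19 to 3.66 FPKM in wild-type, 1.42 to 2.53 FPKM in Bcl11bm/m and 2.39 to 4.04 FPKM in cKO libraries and passed no test (adjusted p = 0.819, 0.519 and 0.282 by limma). Cd80 and Cd86, ligands of CTLA-4, were at most 0.192 and 0.313 FPKM, and Cd200r1 was 0.297 to 1.58 FPKM. MHC class II, which LAG-3 binds, was looked up after other values were seen. H2-Ab1, its beta chain in these mice, had 3.77 to 9.80 FPKM in wild-type, 40.6, 8.32 and 4.29 FPKM in Bcl11bm/m and 2.41 to 8.16 FPKM in cKO libraries. H2-Aa, the alpha chain, had 0.332 to 4.79, then 38.8, 6.44 and 3.55, and 1.25 to 7.4 FPKM in the same order. Bcl11bm/m replicate 1 stood apart for both genes. For H2-Aa, Bcl11bm/m replicate 2 and cKO replicate 1 (7.4 FPKM) also exceeded all wild-type libraries.

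Among 24 other genes of the TNF receptor family, 13 passed the expression minimum. In Bcl11bm/m thymocytes 4 rose and 3 fell, where 9.92% of all genes tested were called higher and 7.39% lower, and the list median was 0.20 against -0.02 for all genes tested. Tnfrsf21 (death receptor 6) rose from 1.03 to 4.13 FPKM, a difference of 1.36 (adjusted p = 0.00116 by limma), and Tnfrsf22 rose by 1.09. Tnfrsf1a, the main TNF receptor, fell from 43.7 to 16.1 FPKM (-1.38, adjusted p = 0.00109 by limma). Fas, Tnfrsf1b, Tnfrsf14 and Tnfrsf26 were also called, with differences of -0.75, -0.75, 0.77 and 1.06, but each of these calls was lost when certain single libraries were left out (1, 7, 4 and 5 libraries, with adjusted p up to 0.0601, 0.147, 0.117 and 0.105 by limma).

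In cKO thymocytes 2 of the 13 rose and 1 fell, where 4.65% of all genes tested were called higher and 9.86% lower, and the list median was 0.00 against -0.09. Tnfrsf25 (death receptor 3) had 0.308, 0.115, 0.179, 0 and 0 FPKM in wild-type and 3.21, 2.40, 2.27 and 2.84 FPKM in cKO libraries. It rose by 1.72 (adjusted p = 6.74e-04 by limma), and the groups did not overlap. Tnfrsf25 reached the expression minimum through the cKO libraries alone, being under 1 FPKM in all others, so its call is no independent evidence of a difference. Tnfrsf1a fell by 0.53 and Tnfrsf22 rose by 0.69 (adjusted p = 0.033 and 0.0453 by limma), and leaving out 8 and 7 of the 9 libraries, 1 at a time, ended these calls. Between the mutants Tnfrsf14 was higher and Tnfrsf1a, Tnfrsf1b and Tnfrsf25 were lower in Bcl11bm/m thymocytes, with differences of 0.88, -0.84, -0.87 and -1.30. The last 2 calls were lost without any of 4 libraries and without cKO replicate 1 (adjusted p up to 0.1 and 0.0619 by limma).

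Of 17 ligands of the TNF family 6 were tested, and 2 rose in Bcl11bm/m thymocytes, against 9.92% of all genes tested. Tnfsf10 (TRAIL) had 3.60 to 6.10 FPKM in wild-type and 13.6 to 14.2 FPKM in Bcl11bm/m libraries, a difference of 1.40 (adjusted p = 0.00153 by limma), and Tnf rose by 1.82 (adjusted p = 0.00846 by limma). Neither rise was seen at the threshold in cKO thymocytes, where adjusted p was 0.201 for Tnf and 0.922 for Tnfsf10 by limma. All 15 receptor adaptors were tested, and 3 rose and 2 fell in Bcl11bm/m and 2 rose and 1 fell in cKO thymocytes, with the same shares of all genes called as for the receptors. In Bcl11bm/m thymocytes Ripk1, Map3k14 and Traf5 rose by 0.86, 1.12 and 0.99, while Traf4 fell by 1.24 (adjusted p = 4.38e-04 by limma) and Traf1 fell by 1.43. In cKO thymocytes Ripk1 rose by 0.73, Birc3 rose by 0.42 and Traf4 fell by 0.98 (adjusted p = 0.00437 by limma). The calls of Map3k14, Traf5, Traf1 and Birc3 were lost when 1 of 2, 5, 4 and 7 libraries, respectively, was left out.

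Of 13 genes of the CD28 and B7 family 12 were found and 5 tested, of which 1 fell in Bcl11bm/m and 2 in cKO thymocytes, where 7.39% and 9.86% of all genes tested fell. Pdcd1, which encodes the inhibitory receptor PD-1, had 3.24, 3.28, 2.76, 2.97 and 2.76 FPKM in wild-type and 0.846, 0.421 and 0.410 FPKM in Bcl11bm/m libraries. It fell by 1.37 (adjusted p = 2.73e-04 by limma, but 0.0717 in a fit of all 3 groups), in contrast to the rise of Lag3. In cKO libraries Pdcd1 varied widely, at 3.47, 6.79, 10.9 and 0.469 FPKM. Cd28, the costimulatory receptor that competes with CTLA-4 for its ligands, had 78.9 to 110 FPKM in wild-type, 83.8 to 98.9 FPKM in Bcl11bm/m and 31.8 to 61.9 FPKM in cKO libraries. It fell by 1.08 in cKO thymocytes (adjusted p = 0.00654 by limma) and differed by -0.08 in Bcl11bm/m thymocytes (adjusted p = 0.718 by limma). Icos fell by 0.89 in cKO thymocytes (adjusted p = 0.0221 by limma), a call that 4 libraries could end (adjusted p up to 0.0658).

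**Figure D4:**
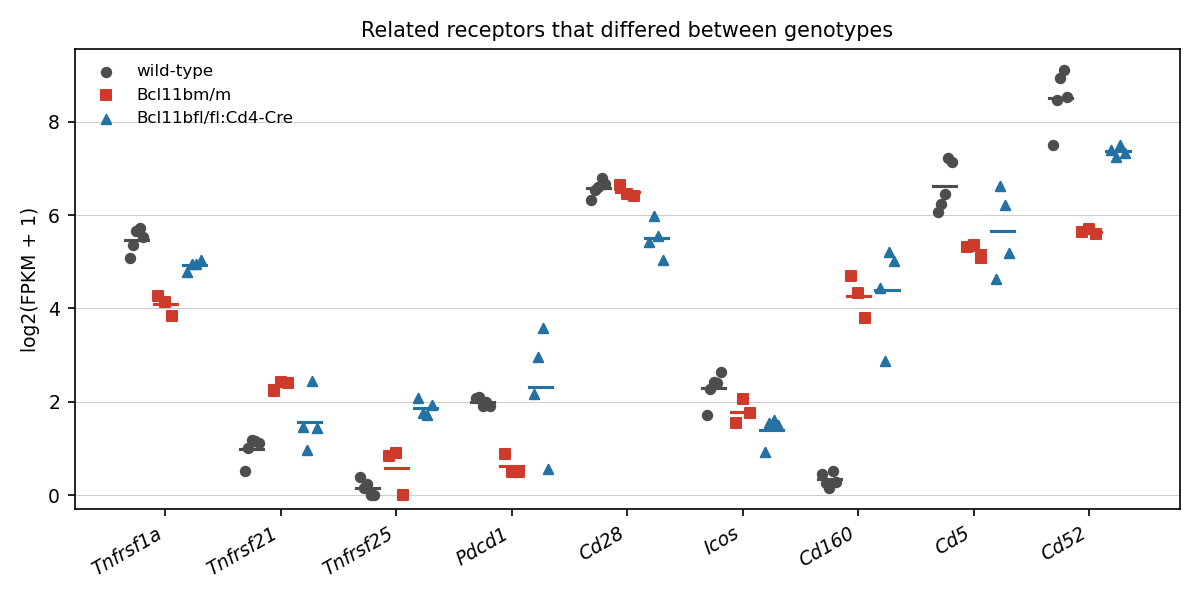
Expression of 9 related receptors as log2(FPKM + 1) in wild-type (circles), Bcl11bm/m (squares) and Bcl11bfl/fl:Cd4-Cre (cKO, triangles) libraries, with a point for each library and a line at each group mean. Cd160 lies between 0.111 and 0.433 FPKM in wild-type and above 6 FPKM in both mutants, and Cd28 is lowest in cKO libraries.

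Of 25 other inhibitory and costimulatory receptors and ligands 13 were tested, and 3 rose and 4 fell in Bcl11bm/m thymocytes, against 9.92% and 7.39% of all genes tested. Cd160, an inhibitory receptor of cytotoxic lymphocytes, had 0.111 to 0.433 FPKM in wild-type, 24.8, 19.2 and 12.8 FPKM in Bcl11bm/m and 20.7, 6.38, 35.9 and 31.4 FPKM in cKO libraries. It was called higher in both mutants, by 3.93 (adjusted p = 1.21e-05 by limma) and 4.05 (adjusted p = 0.0013 by limma). Cd160 reached the expression minimum through the mutant libraries alone, so these calls are no independent evidence of a difference. Cd5, a negative regulator of TCR signalling, fell by 1.37 and Cd6 by 0.97 in Bcl11bm/m thymocytes (adjusted p = 0.0122 and 0.0104 by limma). Pvr, a ligand of TIGIT, fell by 1.86 (adjusted p = 3.55e-04 by limma) and Cd52 by 2.86 (adjusted p = 8.17e-04 by limma). In cKO thymocytes, besides the call of Cd160, where 4.65% of all genes were called higher and 9.86% lower, Cd52 and Lgals9 fell by 1.14 and 0.64 (adjusted p = 0.0265 and 0.0474 by limma), both with overlapping groups and named after their values were seen. Cd2 rose by 0.71 and Adora2a by 1.08 in Bcl11bm/m thymocytes. Leaving out single libraries ended these 2 calls (2 and 5 libraries, adjusted p up to 0.0651 and 0.114 by limma).

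The agonist selection programme, 26 genes induced by strong TCR signals of which 18 were tested, did not move in a single direction. Its median was -0.11 in Bcl11bm/m and -0.12 in cKO thymocytes, against -0.02 and -0.09 for all genes. Of the 18 genes 3 rose and 4 fell in Bcl11bm/m thymocytes (9.92% and 7.39% of all genes tested), and 1 rose and 3 fell in cKO thymocytes (4.65% and 9.86%). In Bcl11bm/m thymocytes Il2ra (the interleukin-2 receptor alpha chain), Myc and Ikzf2 (Helios) rose by 3.55, 1.89 and 1.26 (adjusted p = 7.27e-04, 9.20e-04 and 0.00421 by limma). The immediate early genes Nr4a1, Egr1 and Egr2 fell by 1.94, 1.27 and 1.12 (adjusted p = 2.81e-04, 0.00852 and 0.0107 by limma). Fitted with all 3 groups, which share an estimate of the spread, Egr1 and Egr2 did not pass (adjusted p = 0.142 and 0.0913 by limma). Nfkbid fell by 0.55, a call that 6 libraries could end (adjusted p up to 0.117). In cKO thymocytes Ikzf2 rose by 0.97 (adjusted p = 0.0439 by limma, lost without any of 8 libraries), and Egr1, Egr2 and Cd69 fell. Cd69, named after its values were seen, fell by 1.46 (adjusted p = 0.0356 by limma) although the groups overlapped. The differences of Egr1 (-1.96) and Egr2 (-1.55) were uneven among libraries. Egr1 had 5.20, 35.6, 26.8 and 4.0 FPKM in the 4 cKO libraries. Each call was lost without any of 6 of the 9 libraries, wild-type replicates 2 to 5 and cKO replicates 1 and 4, with adjusted p of 0.0694 to 0.135 for Egr1 and 0.0607 to 0.123 for Egr2 by limma.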

How the data were processed

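RNA-seq libraries of sorted pre-selection DP thymocytes from 5 wild-type, 3 Bcl11bm/m and 4 Bcl11bfl/fl:Cd4-Cre (cKO) samples were analysed. The authors mapped reads with tophat2 and deposited FPKM values per gene and library, computed with cufflinks on the iGenome annotation without stated scaling between libraries. The submitters' processing notes list mm9, Cufflinks 2.1.1 and TopHat2 2.8.0. Gene positions were those of GENCODE vM1 (NCBIM37), where a single gene was found for 21665 symbols.

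Of all features, 10780 averaged 1 FPKM or more and were tested on the log2(FPKM + 1) scale. Each comparison was a separate two-sided limma fit (version 3.58.1, R 4.3.3, with trended empirical Bayes) of its own 2 groups. P-values were adjusted by Benjamini-Hochberg over all features tested, with a threshold of 0.05. On this scale fold changes of low genes are understated. Members under that mean were compared by exact permutation tests. Fragments were estimated from the steps between low FPKM values, with a floor of 3 fragments that covers counting error only. The scripts were tested on simulated data.

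The members and gene lists were chosen with earlier results of these data known. All 8 members were named. From each of 6 related lists up to 4 genes per comparison and direction were eligible, those with the largest differences among genes with an adjusted p under 0.05 and no overlap of groups. Ligands, the 2 nearest genes on either side and the 3 most similar profiles per member were also eligible. Of 10 marker lists those of endothelial and mesenchymal, thymic epithelial and erythroid cells are given here by their sums only. In wild-type, Bcl11bm/m and cKO libraries the first summed to 37.3 to 63.8, 145 to 168 and 84.3 to 140 FPKM, mostly Pecam1. Thymic epithelial markers summed to 52.4 to 85.8, 43.1 to 56 and 36.8 to 419 FPKM in that order. Erythroid markers summed to 2.46 to 34.7, 10.9 to 29.8 and 0.906 to 5.07 FPKM. The alternatives were a pseudocount of 0.1, an expression minimum of 5 FPKM or none, scaling by median ratios, quantiles or without 727 short RNA features, a fit of all 3 groups, library quality weights, a replicate block, robust variance moderation, differences relative to the median, and leaving out each library.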

Additional observations from a re-analysis of the deposited data

Results flagged for a closer look

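In 3 of 92 groups of 4 or 5 libraries, 1 library lay far from the others by Dixon's test, where chance would give about 4.6. Ctla4 was 2.11 FPKM in cKO replicate 2, against 0.128 to 0.452 FPKM in the other replicates. Lag3 was 7.97 FPKM in cKO replicate 3, against 5.14 to 5.28 FPKM in the others. Nfkbid was 10.4 FPKM in the same library, against 5.94 to 6.64 FPKM.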

How the results depend on the processing

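The higher Lag3 level in Bcl11bm/m thymocytes passed under every setting run, with differences of 2.41 to 2.69 from wild-type and 3.23 to 3.52 from cKO thymocytes with all libraries and no block. The number of members called for cKO against wild-type was 0 with no filter, with the replicate block and relative to the median difference, 2 (Lag3 and Cd27) with quality weights, and 0 to 1 with 1 library left out. Without cKO replicate 2 the member called was Cd27. Between the mutants it was 2 (Lag3 and Tnfrsf18) with median-ratio scaling and with quality weights.

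The same-numbered libraries did not vary together (correlations of -0.211 to 0.152), so numbers do not pair them. The replicate block also left out libraries whose number was missing from the other group. It left 293, 445 and 46 genes called, against 1866, 1564 and 1102. Blocking and the loss of libraries cannot be told apart in these counts. Quality weights gave 3604, 3176 and 2173, and a mean of at least 5 FPKM gave 1189 for Bcl11bm/m against wild-type and 656 between the mutants. Leaving out 1 library gave 1021 to 2349, 700 to 2678 and 313 to 1121. These counts moved by over 1.5 times without Bcl11bm/m replicate 1 (1225) or 2 (1021) in the first comparison, without wild-type replicate 1 (2678), 2 (938) or 5 (865) or cKO replicate 1 (700), 3 (778) or 4 (773) in the second, and without Bcl11bm/m replicate 2 (327) or 3 (313) or cKO replicate 1 (392), 2 (649) or 4 (711) in the third. The cause of these shifts was not tested. The genes eligible for naming from the related lists by the rule above, not all of them named here, numbered 29, 12 and 16. Of these, 23, 7 and 9 kept their calls under all settings with every library and no block. With any library left out 19, 5 and 7 kept them, and with the block 7, 4 and 3.

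Some differences changed sign. From wild-type, Cd27 and Tnfrsf4 in Bcl11bm/m were 0.03 and -0.01 after quantile normalization. Tnfrsf18 in Bcl11bm/m was 0.05 with the block, a fit without wild-type replicates 4 and 5 (30.1 and 21.3 FPKM). With 1 library left out, Tnfrsf4 in Bcl11bm/m ranged from -0.14 to 0.46 and Tnfrsf18 in cKO from -0.10 to 0.24. Between the mutants Tnfrsf4 was 0.11 with weights. With 1 library left out, Tnfrsf4 ranged there from -0.51 to 0.10, Tnfrsf9 from -0.17 to 0.05 and Cd83 from -0.01 to 0.80. Depth limits Tnfrsf9, Ctla4, Cd200 and Cd83, which had 3 or fewer estimated fragments, rounded to whole fragments, in 6, 6, 4 and 7 of the 12 libraries.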
